A study of Mus musculus with 48 samples.

Results

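The cDNA clones described here had a ratio of signal between 2 lines of murine erythroleukemia cells that was higher after 36 h of drug than after 6 h. A member had a log2 ratio of HD over LD cells that was higher at 36 h than at 6 h under each of 3 drugs, with a mean difference over the drugs of at least 0.6. This difference is called the rise below. Of 18494 clones with a value in all 12 conditions, 103 met the rule, which is 0.557%. A mean rise of at least 0.6 without the demand on each drug was reached by 119 clones, or 0.643%, so that 16 of them did not rise under every drug. A rise above 0 under each drug, of any size, was found for 2008 clones, or 10.9%. The 6 h and 36 h values chose the members, and they are given as a description with no test.

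Murine erythroleukemia cells are red cell precursors arrested by a transforming virus. Inducers such as dimethyl sulfoxide (DMSO), hexamethylene bisacetamide (HMBA) and the histone deacetylase inhibitor trichostatin A (TSA) release them into maturation, in which they stop dividing and accumulate haemoglobin and other red cell proteins. Clones of one culture can differ widely in how readily they respond, and RNAs of the mature red cell programme build up late in the process.

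The line T-3-Cl-2-0.fl gave both clones, HD cells, in which differentiation is readily induced, and LD cells, in which it is not. DMSO was given at 1.0%, HMBA at 3.0 mM and TSA at 15 nM, each for 6, 12, 24 or 36 h, and RNA of both lines at the same drug and time was put on the same 2-colour array. There were 4 technical arrays for each of the 12 conditions, 48 in all, which listed between 19237 and 20581 clones with a median of 20031. No untreated cells were analysed here. Each line was a single clone and each condition a single pair of RNAs as far as the labels say, so p-values below measure the spread between conditions that drug and time leave. The number of arrays limits the precision, and 87 of the members had a value on all 48 arrays, the lowest count being 42. In bulk RNA, fewer cells of a kind and less RNA per cell cannot be told apart.

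The files and the reference tables pair none of these clones with a gene, so members are described by their values, plates and wells, and the label of the cells could not be set against red cell marker genes. The few clones given by name were chosen from those with the highest rise or a call, after their values had been seen. The labels name HD cells as target on every array, and the ratio is given as HD over LD. That direction is called likely and not settled. Across clones, raw ratios of arrays 3 and 4 correlated negatively with those of arrays 1 and 2 in every condition, with r from -0.857 to -0.316, while the labels give HD cells the same dye throughout and the design speaks of dye swaps. After loess normalization r lay between -0.675 and 0.0440. The tests, the levels at 6 and 36 h, the order of the drugs and the change in each line are therefore also given with the sign of arrays 3 and 4 turned, whereas the grouping by starting level, the runs of wells and the ranges of single clones are given in the likely direction alone. With that sign 73 clones met the rule, 1 of them a member, and the median rise of the 103 members was 0.11, with 18 of them rising under every drug.

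The members had a mean rise between 0.60 and 1.90 on the log2 scale, with a median of 0.81. A mean rise of at least 1 was reached by 35 members, and 32 lay between 0.6 and 0.7, close to the limit. The 3 members just inside the limit had mean rises of 0.603, 0.602 and 0.602, and the 3 clones just outside had 0.593, 0.589 and 0.589. All 103 members had a mean rise above 0 on arrays 1 and 2 and also on arrays 3 and 4 taken alone. The rule averaged these pairs of arrays, so this count is a description of the choice. At 24 h, which the rule did not use, 61 members were above 0 on both pairs as means of the drugs. Of all clones 19.3% were.

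At 6 h most members were lower in HD cells. Under DMSO their median log2(HD/LD) was then -0.17, with HMBA -0.18 and with TSA -0.28, and 26, 36 and 25 of the 103 members were above 0. At 12 h the medians were -0.03, 0.01 and 0.01 in the same order, near those of all tested clones, which were -0.01, -0.01 and -0.02. By 24 h they were 0.15, 0.21 and 0.43, and at 36 h 0.15, 0.63 and 0.98. Under DMSO the median was thus the same at 24 and 36 h, whereas under HMBA and TSA it went on upwards. At 36 h, 77 members were above 0 under DMSO, 96 under HMBA and 99 under TSA. Those above 0 under all 3 drugs numbered 74. Turning arrays 3 and 4 gave the same members medians at 6 h of -0.01, 0.11 and 0.11. At 36 h they were then 0.10, 0.16 and 0.27. The low start and most of the late excess were thus seen in the likely direction alone. The rule chose members on these values in that direction, which by itself favours low values at 6 h and high ones at 36 h.

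**Figure D1:**
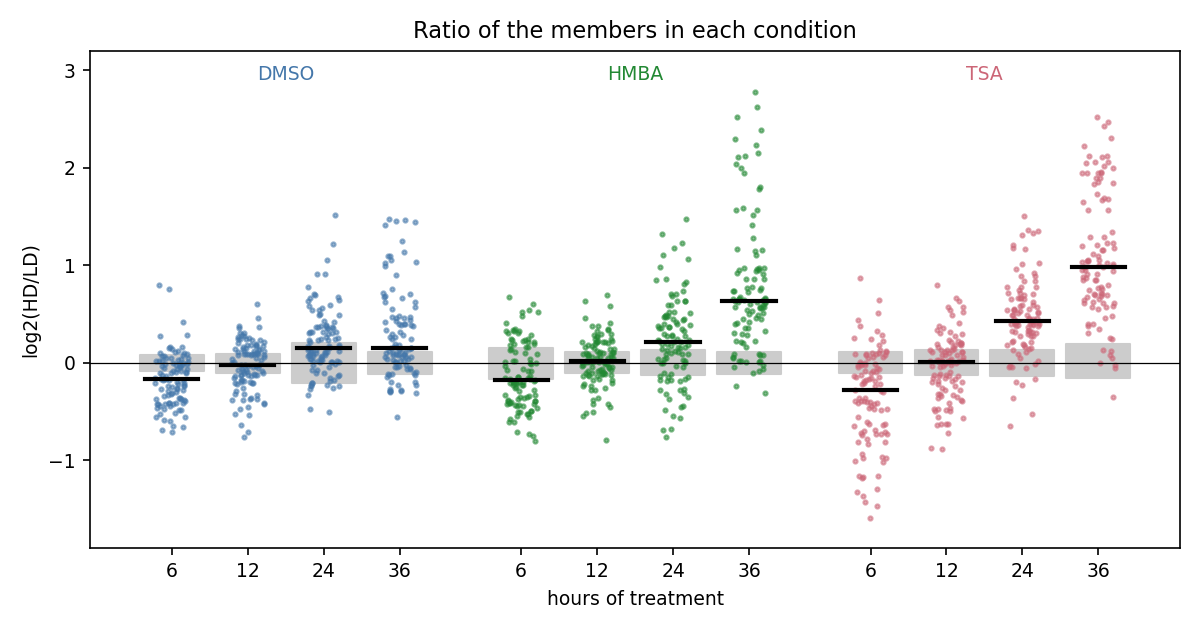
Ratio of the 103 clones in each condition. The vertical axis is log2(HD/LD) and the horizontal axis the hours of treatment under each drug; points are clones, black lines their medians, and grey boxes the range between the quartiles of all 18494 tested clones. Medians run from -0.28 under TSA at 6 h to 0.98 under TSA at 36 h, with 0.15 under DMSO at 36 h.

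The size of the rise differed between the drugs. The rise had a median of 0.42 under DMSO, with a range from 0.02 to 1.36. Under HMBA its median was 0.85, with a range from 0.03 to 2.68, and under TSA 1.41, with a range from 0.37 to 2.60. TSA gave the largest of the 3 rises in 84 members, HMBA in 17 and DMSO in 2, while DMSO gave the smallest in 86. With arrays 3 and 4 turned, TSA gave the largest in 49, HMBA in 22 and DMSO in 32, DMSO the smallest in 38, and the median rises were 0.08, 0.04 and 0.19 for DMSO, HMBA and TSA. In 21 members TSA made up over 66.7% of the summed rise, and there the medians were 0.19 under DMSO, 0.33 under HMBA and 1.59 under TSA. The mean over drugs in the rule favours whichever drug moves most, and these counts carry no test.

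The step between neighbouring times also differed. Under DMSO the median difference was 0.11 from 6 to 12 h, 0.24 from 12 to 24 h and 0.08 from 24 to 36 h. Under HMBA it was 0.12, 0.19 and 0.48, and under TSA 0.25, 0.47 and 0.52. The last step was above 0 for 55 members under DMSO, 86 under HMBA and 100 under TSA. The rule used the outer times, so only the step from 12 to 24 h is free of it.

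Clone H3140G04 stood 8th in mean rise and was higher in HD cells from the start. On arrays 1 to 4 its log2(HD/LD) ranged from 0.47 to 1.11 under DMSO at 6 h, from 0.04 to 0.71 under HMBA and from -0.40 to 1.21 under TSA. At 36 h the ranges were 1.17 to 2.08, 2.20 to 3.02 and 2.17 to 2.89. The arrays at 6 h and at 36 h did not overlap under any drug. Between them, the means of 4 arrays at 12 h were 0.30 ± 0.29 (SD) with DMSO, 0.63 ± 0.58 with HMBA and 0.49 ± 0.13 with TSA. By 24 h these were 1.22 ± 0.95, 1.31 ± 0.12 and 1.35 ± 0.39. The lowest and highest of these means, under DMSO and TSA, differed by less than the SD of either, though by more than that under HMBA. Under DMSO at 24 h, 1 array lay at -0.15 and the highest at 1.92.

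Clone H3079C09 stood 9th in mean rise and started lower in HD cells. Under TSA at 6 h its arrays ranged from -1.69 to -1.26, under DMSO from -0.69 to -0.56 and under HMBA from -0.70 to -0.45. At 36 h they ranged from 0.25 to 1.77 under TSA, from 0.28 to 1.58 under HMBA and from -0.48 to 0.60 under DMSO. Every array at 36 h lay above every array at 6 h under each drug. At 24 h the mean was 0.28 ± 0.82 (SD, 4 arrays) under TSA, 0.10 ± 0.48 under DMSO and -0.69 ± 0.10 under HMBA. Under HMBA its ratio was thus still below that of 6 h, -0.53 ± 0.12, before it reached 0.95 ± 0.69 at 36 h. The wide SDs came from a split between the pairs of arrays. Under TSA at 24 h arrays 1 and 2 gave 0.99 and 0.98, and arrays 3 and 4 gave -0.45 and -0.41. With DMSO they gave 0.50 and 0.54 against -0.34 and -0.30 at 24 h, and -0.46 and -0.48 against 0.59 and 0.60 at 36 h. In these conditions the sign thus depended on the pair. A clone in the next well was also a member, and the 12 condition values of both had r = 0.994. These values include those at 6 and 36 h that chose both clones, which favours a high r.

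At 24 h, a time the rule did not use, 33 of the 103 members were called higher in HD cells and 0 lower, by limma over the 6 conditions at 12 and 24 h with Benjamini-Hochberg adjustment over all clones. Of all tested clones 298 were called higher, or 1.61%, and 132 lower, or 0.714%. The median of the members was 0.27, against -0.02 for all tested clones, and 85 of 103 members were above 0, where 45.0% of all clones were. At an unadjusted p under 0.05 there were 59 members and 13.9% of all clones. The called members had log2 ratios from 0.39 to 1.50 with a median of 0.61, and all 33 were above 0 under each drug. On the single arrays at 24 h, 25 of them were above 0 on at least 10 arrays and 10 on every array with a value. The ratio of H3140G04 at 24 h was 1.30 (95% confidence interval 1.07 to 1.52, limma adjusted p = 1.45e-24), and 0.34 with arrays 3 and 4 turned (limma adjusted p = 0.0634). That of H3079C09 was -0.11 (interval -0.34 to 0.12, limma adjusted p = 0.714), and 0.35 with those arrays turned (limma adjusted p = 0.122).

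The 33 called members and the other 70 had different medians at the other times, which are given with no test. At 6 h the called members had medians of 0.01 under DMSO, 0.04 under HMBA and -0.05 under TSA, whereas the others had -0.24, -0.25 and -0.44. At 36 h under TSA the medians were 1.94 and 0.81. Of the called members, 16 were among the 35 with a mean rise of at least 1 and 17 among the other 68, as a description, since the rule used the rise.

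These calls leaned on a shared estimate of the spread. The fit left 2 residual degrees of freedom per clone, and its empirical Bayes step gave all clones the same SD of 0.203, so that a clone of wider scatter was tested as one of average scatter. With all 12 conditions in the fit 13 members were called higher at 24 h, of 60 among all clones. With median centring in place of loess 8 members were, of 12 among all clones. Leaving out the 24 h condition of DMSO gave 9, that of HMBA 14 and that of TSA 13. Among all clones these fits called 9, 26 and 81 higher. Leaving out DMSO at 12 h gave 18 members, of 63 among all clones. The calls over all clones thus fell as well, from 298 in the main fit. With arrays 3 and 4 turned, 11 were higher, where 3.81% of all clones were, and 1 lower, where 6.98% of all clones were, and the median of the members was 0.15. Under TSA at 24 h arrays 1 and 2 gave the members a median of 0.78 and the other pair 0.10, so that the pairs of arrays were far apart there.

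At 12 h, 2 of the 103 members were called higher, where 0.108% of all clones were, and 7 lower, where 0.292% of all clones were. The median of the members was -0.01, the same as that of all tested clones, and 48 of 103 were above 0. H3140G04 was one of the higher members, at 0.48 (interval 0.25 to 0.71, limma adjusted p = 0.0158). With arrays 3 and 4 turned, 6 members were higher, where 2.95% of all clones were, and 3 lower, where 5.97% of all clones were, so that the lower share lay below the background. Median centring, or leaving out DMSO at 12 h, HMBA at 12 h or DMSO at 24 h, left 0 members called lower. Among all clones these fits called 1, 1, 17 and 19 lower.

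The 7 members that were lower at 12 h had ratios from -0.79 to -0.46, and all had been below 0 under each drug at 6 h. Clone H3134E01 had the lowest of these ratios. At 12 h its arrays ranged from -0.94 to -0.50 under DMSO, from -1.19 to -0.36 under HMBA and from -1.07 to -0.74 under TSA. Every array was below 0, and the mean over the drugs was -0.79 (interval -1.02 to -0.56, limma adjusted p = 1.62e-08). At 24 h its mean was 0.10 ± 0.27 (SD, 4 arrays) under HMBA, against -0.48 ± 0.24 under DMSO and -0.65 ± 0.38 under TSA. At 36 h it was 0.67 ± 0.11 under HMBA, 0.31 ± 0.60 under DMSO and -0.35 ± 0.22 under TSA, so that under TSA it stayed below the level of LD cells. With arrays 3 and 4 turned, its value at 12 h was -0.12 (adjusted p = 0.451 in limma). Its call was also lost with median centring (limma adjusted p = 0.224) and without DMSO at 12 h (0.27), HMBA at 12 h (1) or DMSO at 24 h (0.0557), with values from -0.90 to -0.57. Of the 7 members, 6 had their largest rise under HMBA, where the whole list had 17 such members, and at 24 h under HMBA 6 of the 7 were above 0, against 1 under DMSO and 1 under TSA. The drug difference among these 7 was not tested as a group.

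From 12 to 24 h the ratio, as a mean over the drugs, moved upwards in nearly the whole list. The difference of 24 h minus 12 h was above 0 in 101 of 103 members, where 45.5% of all clones were, with a median of 0.30 against -0.02. It was above 0 under each drug in 55 members and in 12.5% of all clones. Taken by drug, it was above 0 in 83 members under DMSO, 73 under HMBA and 96 under TSA. Of all clones 53.6%, 48.7% and 50.3% were. Without TSA at 12 or at 24 h the mean difference was above 0 in 79 members. The test of this difference called 5 of all clones higher, or 0.027%, and all 5 were members, while 4 clones were called lower, or 0.0216%, and 0 of them were members. The 5 called members had differences from 0.72 to 0.82, with adjusted p from 0.00807 to 0.0366 in limma. That of H3140G04 was 0.82 with an interval from 0.49 to 1.14. For most members the difference was smaller than a single clone could show. The 95% interval, before adjustment, reached 0.32 to either side, and a call after adjustment needed more, 0.72 being the smallest called. At an unadjusted p under 0.05 there were 46 members and 5.42% of all clones.

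The 5 calls did not hold in other fits. With the replicate number as a block over single arrays, 0 members were called, as with all 12 conditions in the fit, without array 1 of each condition, with median centring, and with arrays 3 and 4 turned. These fits called 0 of all tested clones too. Leaving out any 1 condition left 0 or 1 member, where 0 or 3 of all clones were called higher. The upward direction was seen more widely than the calls. Arrays 1 and 2 alone gave a difference above 0 in 100 members and arrays 3 and 4 in 77, with 75 above 0 on both, where 26.4% of all clones were. In the fit with arrays 3 and 4 turned, 83 members were above 0, with a median of 0.14. That fit keeps arrays 1 and 2, where 100 members were above 0, and turns the pair in which 77 were. It is therefore no separate sign of the upward direction.

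**Figure D2:**
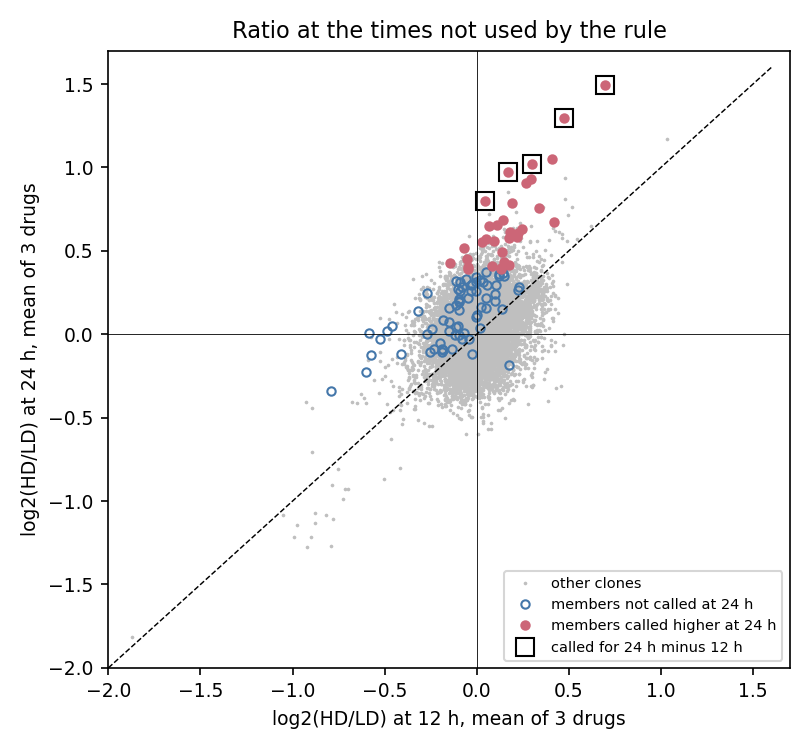
Ratio at the times not used by the rule. The horizontal axis is log2(HD/LD) at 12 h and the vertical axis that at 24 h, each the mean of 3 drugs; grey points are other clones, open circles members not called at 24 h, filled circles the 33 members called higher, and squares the 5 called for the difference. Nearly all members, 101 of 103, lie above the dashed line of equal ratios.

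The 3 pairs of drugs were compared over 12 and 24 h, at the 1 dose of each drug, with p-values adjusted over all clones in each pair. Between HMBA and DMSO 0 members were called, with 11 at an unadjusted p under 0.05 (3.63% of all clones), where 0.00541% of all clones were called higher and 0.0108% lower. Between TSA and HMBA 0 were called, with 16 at an unadjusted p under 0.05 (3.74% of all clones), where 0.00541% of all clones were called in each direction. The interval, before adjustment, reached 0.40 to either side for a clone, and a call after adjustment needed more. Members reached differences of 0.70 for HMBA minus DMSO and 0.78 for TSA minus DMSO without being called higher. Drug differences well above 0.40 could thus go unseen. The median difference of the members was 0.05 for HMBA minus DMSO, 0.14 for TSA minus DMSO and 0.07 for TSA minus HMBA, against 0.02, 0.02 and 0.01 for all clones. They were 0.13, 0.16 and 0.07 with arrays 3 and 4 turned, with 0 members called in any pair. Without DMSO at 24 h the first was -0.03, and without TSA at 24 h the others were 0.0052 and -0.03.

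Between TSA and DMSO, 1 member was called, with a lower ratio under TSA, where 0.0487% of all clones were called lower and 0.0379% higher. This was H4038D04. Under DMSO its arrays ranged from -0.11 to 0.67 at 12 h and from 0.10 to 0.83 at 24 h. Under TSA they ranged from -1.43 to -0.47 at 12 h and from -0.88 to 0.82 at 24 h. The arrays of both drugs did not overlap at 12 h and overlapped at 24 h. At 24 h under TSA arrays 1 and 2 gave 0.69 and 0.82, and arrays 3 and 4 gave -0.88 and -0.76. The difference of TSA minus DMSO was -0.83 (interval -1.23 to -0.43, limma adjusted p = 0.0475), and it was 0.70 with arrays 3 and 4 turned (adjusted p = 0.399 in limma). With all 12 conditions in the fit it was -0.24 (adjusted p = 0.739 in limma), and the replicate block over single arrays left 0 members called. At 36 h the order was turned, with 0.70 ± 0.74 (SD, 4 arrays) under TSA and -0.28 ± 0.38 under DMSO. The pairs of arrays under TSA were again apart, at 1.32 and 1.37 against 0.12 and -0.0037. The clone is in the list chiefly for its rise of 1.41 under TSA, against 0.14 under DMSO.

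The members fell into different courses by their level at 6 h, which the rule used in part. A ratio above 0 under all drugs at 6 h was found in 13 members, a ratio below 0 under all drugs in 59, and mixed signs in 31. The 13 that started above 0 had a median rise of 1.57, the 31 mixed members 0.85, and the 59 that started below 0 had 0.72. At 24 h, 11 of the 13 were called higher in HD cells, 11 of the 31 and 11 of the 59. Their median ratios at 24 h were 0.91, 0.31 and 0.16. Runs of consecutive wells, described below, held 4 of the 13, 9 of the 31 and 3 of the 59. They also held 8 of the 33 members called higher at 24 h, so these counts may not be of separate cDNAs. All 7 members called lower at 12 h were among the 59 that started below 0, and both members called higher at 12 h among the 13 that started above 0.

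The 13 members that started above 0 were above 0 in every one of the 12 conditions. At 36 h, 33 of the 59 that started below 0 were above 0 under all drugs. Their medians at 36 h were 0.04 under DMSO, 0.46 under HMBA and 0.70 under TSA, so under DMSO the group came back to about the level of LD cells. The 13 that started above 0 reached 1.06, 2.15 and 2.06. In them HMBA and TSA gave nearly the same median at 36 h, and 6 of the 13 had their largest rise under HMBA, against 9 of the 59.

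**Figure D3:**
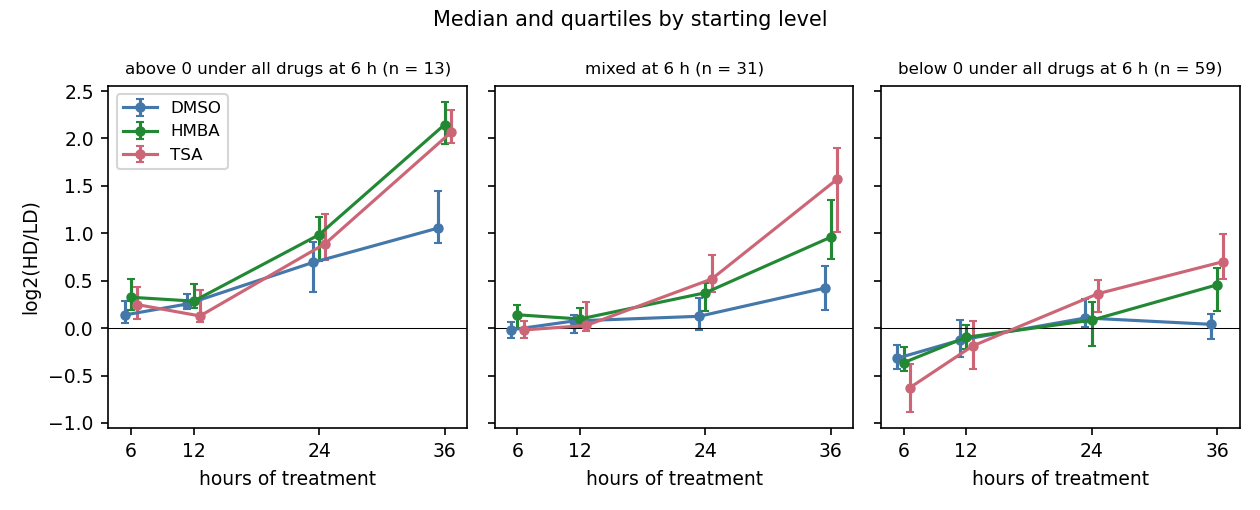
Median and quartiles by starting level. The vertical axis is log2(HD/LD) and the horizontal axis the hours of treatment, with 1 line per drug and 1 panel for each sign of the ratio at 6 h; points are medians over members and bars run between the quartiles. The 13 members above 0 at 6 h reached medians of 1.06, 2.15 and 2.06 at 36 h, and the 59 below 0 reached 0.04, 0.46 and 0.70.

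The ratio can rise through more signal in HD cells or less in LD cells, and the intensities of each line were read from the same arrays after quantile normalization. The changes in the 2 lines are therefore not independent. Between 6 and 36 h the log2 intensity of the members changed in HD cells by a median of 1.07 and in LD cells by 0.07, as means over the drugs. All tested clones had medians of -0.03 in both lines. In 64 members both lines were higher at 36 h than at 6 h, in 35 HD cells were higher and LD cells lower, and in 4 both were lower, so 99 of 103 were higher in HD cells. Which line carried the change depends on the direction: with arrays 3 and 4 turned, the median change was 0.67 in HD and 0.56 in LD cells, and 89 and 88 members were higher at 36 h. H3140G04 had log2 intensities under HMBA of 9.05 in HD and 8.65 in LD cells at 6 h, and of 12.2 and 9.59 at 36 h. It was thus higher at 36 h in both lines, with most of the difference in HD cells. The members that started above 0 had medians of 2.50 in HD and 0.93 in LD cells, those that started below 0 had 0.92 and 0.01.

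**Figure D4:**
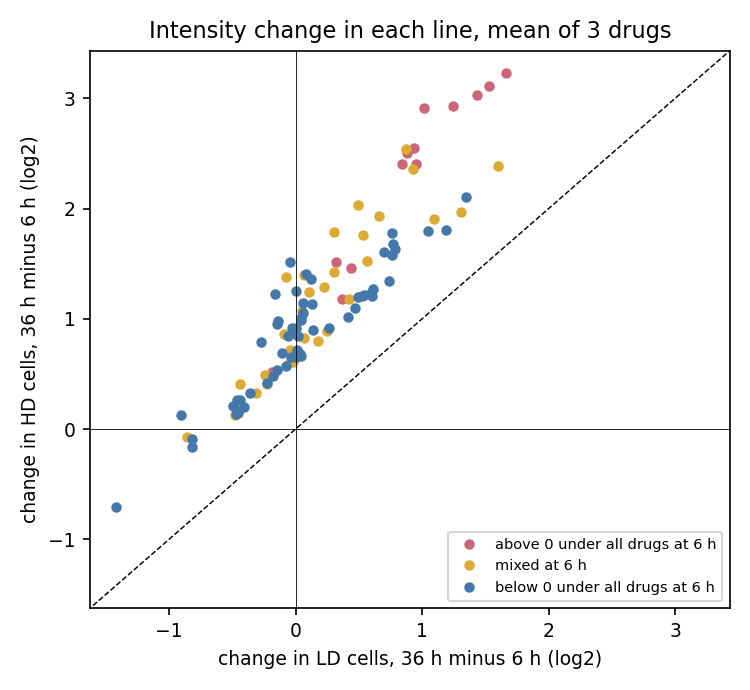
Intensity change in each line, mean of 3 drugs. The horizontal axis is the change in log2 intensity from 6 to 36 h in LD cells and the vertical axis that in HD cells; points are members, coloured by their ratio at 6 h, and the dashed line marks equal changes. The rule places the members above the dashed line; 99 of 103 lie above 0 for HD cells and 64 for LD cells.

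From 12 to 24 h, which the rule did not use, the members had a median change of 0.24 in HD cells and -0.13 in LD cells, against 0.03 and 0.02 for all clones. The median in LD cells lay between -0.14 and -0.03 when 1 array number or 1 condition was left out, at -0.22 with loess within arrays alone, and at -0.0076 with arrays 3 and 4 turned. In HD cells 12 members were called higher and 0 lower by limma, where 0.833% of all clones were called higher and 5.61% lower. In LD cells 1 member was called higher, where 0.66% of all clones were, and 6 lower, where 6.73% of all clones were, so the share of lower members was near the background. H3140G04 changed by 0.76 in HD cells (interval 0.31 to 1.20, limma adjusted p = 0.0389) and by -0.06 in LD cells (interval -0.51 to 0.39, limma adjusted p = 0.889). The 12 members called in HD cells changed there by 0.74 to 1.26 and in LD cells by -0.06 to 0.70, and 11 of the 12 were above 0 in LD cells too. The 6 members called lower in LD cells were all below 0 in HD cells as well. Both lines share the mean intensity of each array, which favours the same sign in both, so these counts do not show 2 separate changes. With loess within arrays alone, 0 members were called higher in HD cells and 1 lower in LD cells. Among all clones these counts were 2 and 107. Without array 1 of each condition 0 members and 0 of all clones were called in either line. Leaving out DMSO at 12 or at 24 h left 1 member called higher in HD cells, of 7 among all clones. Leaving out HMBA at either time left 4 members, of 20 among all clones. Leaving out TSA at either time gave 14 members called higher and 6 lower, of 1013 and 3069 among all 18494 clones. With arrays 3 and 4 turned, 16 were called higher and 4 lower in HD cells, where 1.88% and 9.78% of all clones were. In LD cells 2 were then higher and 2 lower, where 0.33% and 5.00% of all clones were.

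Members were spread over the array but also lay side by side. They came from 63 plates by their clone names, with 52 on part 1 of the array and 51 on part 2, which held 45.0% of all tested clones. The name series starting with H4 held 21 members and 26.6% of all tested clones. The largest number on 1 plate was 7, on plate H3122, with 93 tested clones, followed by 5 each on H3056 and H3123. In 6 runs of consecutive wells lay 16 members, and the longest run held 6.

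The run of 6 crossed from the end of plate H3122 to the start of plate H3123, and it held the member with the highest rise in the list. Its members rose by 1.23 to 1.90, and 5 of the 6 were called higher at 24 h, with ratios from 0.36 to 0.97. Their 12 condition values had r between 0.90 and 0.98 with each other, as a description over conditions that share arrays. The values at 6 and 36 h chose the members, which also favours a high r. At 6 h they were at 0.14 to 0.28 and at 12 h at 0.12 to 0.29, and at 36 h at 1.37 to 2.08. The wells before the run had rises of -0.04 and 0.59, and those after it 0.01 and -0.11, so the level dropped from one well to the next at the end of the run. The well with 0.59 lay just outside the limit of the rule. Other clones on the plates of members, 5099 in all, had a median rise of 0.01. Whether neighbouring wells hold copies of the same cDNA was not tested.

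**Figure D5:**
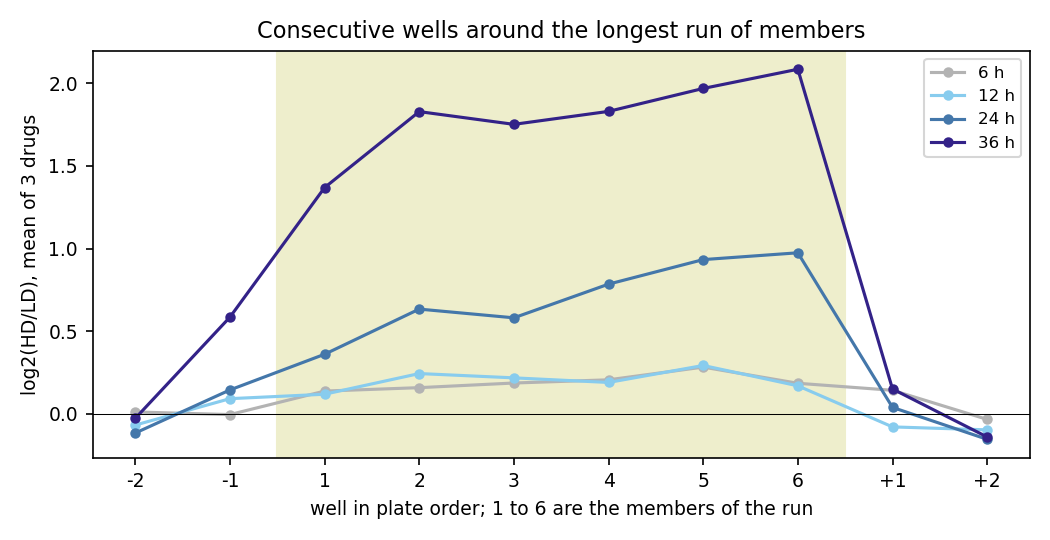
Consecutive wells around the longest run of members. The vertical axis is log2(HD/LD) as mean of 3 drugs at each time and the horizontal axis the wells in plate order, with the 6 members shaded. At 36 h the members lie at 1.37 to 2.08, and the well after the run at 0.15.

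Members were brighter than other clones, with a median log2 intensity of 9.84 against 9.09, with 32 among the brightest 25% and 14 among the dimmest 25% of all tested clones. The 10 brightest members, at 12.9 to 14.8, were all below 0 under each drug at 6 h, and their median under TSA was -1.25. At 36 h under TSA their median was 0.77, below the 0.98 of the whole list. In 1 member a channel reached the top of the scanner scale on 2 arrays. The part of signal strength in the ratio of these clones was not tested.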

How the data were processed

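Per the file headers, each array was deposited as 2 parts, with an intensity in a control and in a target column for each listed clone. These deposited intensity values came without background values, and none was subtracted here. The authors also deposited a table of log2 ratios, used as an alternative. The sources used here do not give how it was normalized. Its columns had r between 0.987 and 0.999 with the ratios computed here, slopes of 0.965 to 0.998 and medians from -0.0400 to 0.0205, which makes it log2 of target over control, with its centring unstated.

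Ratios were normalized by loess (span 0.3) within each part of an array. A condition's value was the mean of the means of arrays 1 and 2 and of arrays 3 and 4. The 6 conditions at 12 and 24 h (24 arrays) were fitted with drug and time as terms in limma 3.58.1 under R 4.3.3. P-values were two-sided, adjusted by Benjamini-Hochberg over 18494 clones, with a threshold of 0.05. For each line, intensities were also quantile-normalized between arrays. Same-numbered arrays deviated together (r from 0.208 to 0.677, median 0.427 over 14950 clones), so the numbers pair arrays, as the dye orientation in the design does; a blocked fit is given where it changed a result.

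The members and lists were chosen with earlier results of these data known. Clones to be named were the 12 with the highest rise, the 10 with the smallest p at 24 h, up to 5 called for 24 h minus 12 h, up to 3 for each drug difference, those nearest the limit and those in the 2 longest runs of wells. As no table paired clones with genes, at most 2 of each direction are named, and the gene lists of red cell proteins could not be used. The alternatives were median centring, the authors' log2 table, turned arrays, an offset of 50, a filter on the dimmest 25%, and leaving out arrays or conditions. The fits were tested on simulated data.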

Additional observations from a re-analysis of the deposited data

Results flagged for a closer look

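In clone H3140G04 under HMBA at 24 h, array 3 gave a log2(HD/LD) of 1.130, apart from the other arrays at 1.363 to 1.400. In H3079C09 under HMBA at 6 h, array 2 gave -0.7035, below the others at -0.4776 to -0.4548. In H4038D04 under TSA at 6 h, array 3 gave -1.394, below the others at -0.5402 to -0.3705. In each of these groups of 4 arrays the gap to the nearest array was large for the range of the group. There were 48 such groups among the named clones, and chance alone would single out about 2.4 of them.

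In 5 members HD and LD cells differed in their change from 12 to 24 h, as tested by the change of the ratio itself in limma. The ratio of H4038D04 over 12 and 24 h differed between TSA and DMSO by -0.8324 (adjusted p = 0.0475 in limma).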

How the results depend on the processing

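Counts are of the 103 members unless given otherwise. The fits listed here with 0 for 24 h minus 12 h called 0 of all clones there too. Among all clones, higher calls at 24 h numbered 12 with median centring and 60 with all 12 conditions. Median centring in place of loess gave 8 members called higher at 24 h (33 in the report), 0 higher and 0 lower at 12 h, 0 for 24 h minus 12 h, 0 for TSA minus DMSO, and 354 clones by the rule, 90 of them members. Turning arrays 3 and 4 gave 11 higher at 24 h, 6 higher and 3 lower at 12 h, 0 for 24 h minus 12 h with a median of 0.14, and 0 lower for TSA minus DMSO. H3079C09 then became 0.35 at 24 h and H4038D04 0.70 for TSA minus DMSO, both reversed, and in LD cells 2 members were called higher from 12 to 24 h with a median of -0.0076. All 12 conditions in the fit gave 13 higher at 24 h, 1 higher and 3 lower at 12 h, 0 for 24 h minus 12 h and 0 for TSA minus DMSO. The replicate block over single arrays gave 0 for 24 h minus 12 h and 0 for TSA minus DMSO, and 30 higher at 24 h; it moved no other count of members called in the ratio by over 1.5 times, and it was not run within the lines. An offset of 50 gave 3 for 24 h minus 12 h and 0 for TSA minus DMSO. A variance trend with intensity, added after seeing the data, gave 0 for TSA minus DMSO. Over clones with a value on all 48 arrays the median at 12 h was -0.031. Loess within arrays alone gave 0 members called higher in HD and 0 in LD cells. Limits of 0.8 and 1 on the mean rise gave 53 and 35 members. In HD cells 2 members were called lower from 12 to 24 h with an offset of 50, of 1120 among all 18494 clones. Without the dimmest 25% it was 2 members, of 948 among 13870 clones. The cause of these changes was not tested.

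Leaving out 1 array number or 1 condition gave 9 to 33 higher at 24 h, 0 to 3 higher and 0 to 7 lower at 12 h with a median from -0.063 to 0.093, and 0 to 4 for 24 h minus 12 h. TSA minus DMSO had 0 to 3 higher and 0 to 1 lower, HD cells 0 to 14 and LD cells 0 to 1 called higher, and the rule gave 104 to 127 clones. H3079C09 had -0.33 to 0.17 at 24 h, above 0 without HMBA at 24 h, and -0.077 to 0.43 for 24 h minus 12 h, below 0 without TSA at 12 or 24 h. The median of the members stayed above 0 at 24 h, from 0.14 to 0.32, and for 24 h minus 12 h, from 0.22 to 0.36. That difference was above 0 in 79 to 97 members. Signal over background could not be used as a filter, since no background values were analysed here.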
